A study of Mus musculus with 4 samples.

Results

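Expression of 8 enzyme genes that modify collagen was followed in the mouse breast cancer line 4T1, with and without a knockout of Dhodh: the prolyl 4-hydroxylase alpha subunit genes P4ha1, P4ha2 and P4ha3, the lysyl hydroxylase genes Plod1, Plod2 and Plod3, and the lysyl oxidase genes Lox and Loxl2. They were taken by symbol, and all 8 were found among the 16695 genes of the deposited expression table, under Entrez Gene identifiers 18451 (P4ha1), 18452 (P4ha2), 320452 (P4ha3), 18822 (Plod1), 26432 (Plod2), 26433 (Plod3), 16948 (Lox) and 94352 (Loxl2). Total RNA was sequenced from 2 libraries of genotype WT and 2 of genotype KO, all of the 4T1 line, and the design asks how expression differs between WT cells and cells lacking DHODH, the mitochondrial enzyme of de novo pyrimidine synthesis. The labels name no treatment, time or batch, and are silent on whether the KO cells were 1 clone and whether replicates were grown separately. The p-values therefore describe only how much these 4 libraries vary, which may be technical. As the RNA is from bulk cultures, fewer cells of a kind and less RNA per cell cannot be told apart.

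Collagen chains are modified in the endoplasmic reticulum before they fold into a triple helix. Prolyl 4-hydroxylase, a tetramer of catalytic alpha subunits and the protein disulfide isomerase P4hb, makes the hydroxyproline that stabilises the helix, and the lysyl hydroxylases make the hydroxylysine that carries sugars and cross-links. All of these hydroxylases use iron, oxygen, 2-oxoglutarate and ascorbate. Outside the cell, the copper-dependent lysyl oxidases oxidise lysines and hydroxylysines of collagen and elastin, which then cross-link. P4ha1, P4ha2, Plod2 and Lox are known targets of hypoxia-inducible factor 1 (HIF-1) in several cell types, and collagen hydroxylation and cross-linking are associated with stiffness of the tumour matrix and with metastasis in breast cancer models. In the authors' annotation column all 8 genes carried the term oxidoreductase activity, and the 6 hydroxylases shared the term L-ascorbic acid binding, which 18 genes of the table carried.

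Values are FPKM, read counts scaled to gene length and to library size, so levels of different genes can be set side by side. The FPKM steps gave back whole reads for 98.4% of genes. Over those genes they totalled between 23554854 and 26103002 per library, which falls short of the full library totals. Differences are log2 fold changes of FPKM + 1, given as KO minus WT with the SE, and are smaller than the true change for low genes. A gene is called where limma-trend gave an adjusted p (Benjamini-Hochberg) under 0.05 over the 10170 genes with a mean of at least 1 FPKM. Of these, 64.7% were called, 35.6% higher and 29.1% lower in KO. Dhodh itself measured 10.9 and 10.3 FPKM in WT and 9.67 and 8.69 FPKM in KO (-0.19 ± 0.068, limma-trend adjusted p = 0.0425, not called in 6 of 14 alternative analyses), so its RNA tests the labels only weakly. Without DHODH KO replicate 2 its log2 fold change was -0.12 (limma-trend adjusted p = 0.200). Of the 8 epithelial markers, 7 were tested, of which Cldn4 (2.11-fold higher, from 74.6 to 158 FPKM) and Epcam (1.44-fold higher) rose, while Cdh1, Krt8 and Krt18 fell by 0.19, 0.12 and 0.10 on the log2 scale. Their sum, carried mostly by the keratins Krt7, Krt8 and Krt18, lay between 1966 and 1986 FPKM in each library. DHODH KO replicate 2 stood apart in that transcripts of other tissues were present. Of 11 heart muscle markers, Tnnt2 was high in all 4 libraries (188 to 208 FPKM), while the other 10, separated after their values were seen, summed to 88.0 FPKM there and to at most 0.302 FPKM elsewhere. Its fibroblast markers summed to 9.86 FPKM, against 2.79 to 3.34 FPKM in the other libraries.

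Expression of the hydroxylases rose in KO for 4 of the 5 genes that passed the filter, beside 35.6% of all genes tested, and the lysyl oxidases Lox and Loxl2 were close to 0 in both genotypes. The 5 tested genes, P4ha1, P4ha2, Plod1, Plod2 and Plod3, each lay above the filter in every library, and their median log2 fold change was 0.89, beside 0.039 over all genes tested. P4ha3, Lox and Loxl2 lay below it. In WT the order of mean levels was Plod3, P4ha1, Plod2, Plod1, P4ha2, P4ha3, Loxl2 and Lox, and libraries of neighbouring genes in that order did not overlap. In KO, P4ha1 stood above Plod3 and P4ha2 above both Plod2 and Plod1, and the KO libraries of Plod2 (15.8 and 14.2 FPKM) overlapped those of Plod1 (14.8 and 14.4 FPKM).

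**Figure D1:**
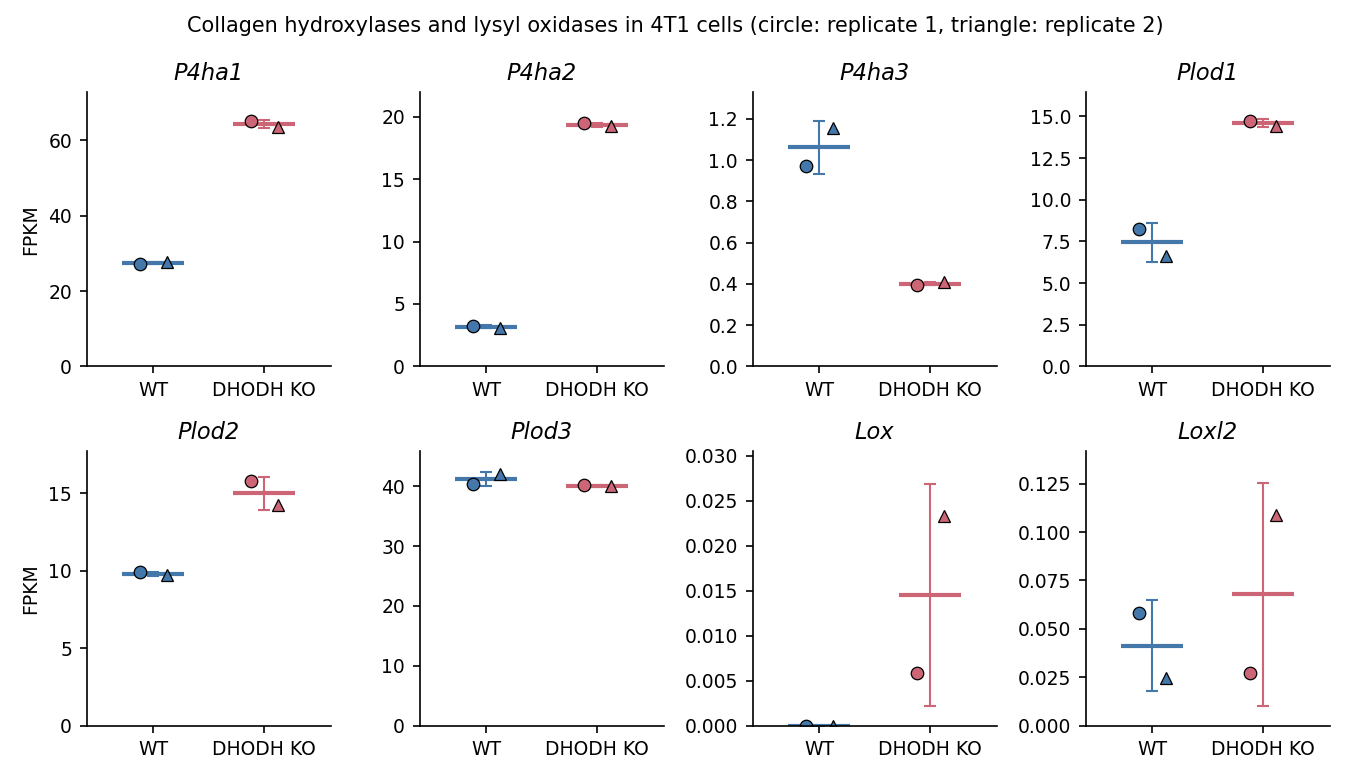
FPKM (vertical axes, each with its own scale from 0) of the 8 genes in WT and DHODH KO libraries. Symbols are single libraries, bars the mean and whiskers the SD of 2 libraries. P4ha1, P4ha2, Plod1 and Plod2 lie higher in both KO libraries, P4ha3 lies lower, Plod3 is near 40 FPKM throughout, and Lox and Loxl2 stay below 0.11 FPKM.

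P4ha1, the main alpha subunit gene of these cells, measured 27.3 and 27.6 FPKM in the WT libraries and 65.1 and 63.5 FPKM in the KO libraries. Both KO values lay above both WT values, and replicates differed little from each other. The mean rose 2.35-fold, from 27.4 ± 0.210 to 64.3 ± 1.14 FPKM (SD, n = 2 per genotype), a log2 fold change of 1.20 ± 0.039 (limma-trend adjusted p = 1.5e-06). P4ha2, which encodes the second alpha isoform, measured 3.26 and 3.10 FPKM in WT and 19.5 and 19.2 FPKM in KO. Its genotypes were again fully separated, and its change was the largest of the 5 tested genes. The mean rose 6.08-fold, from 3.18 ± 0.110 to 19.3 ± 0.179 FPKM (2.28 ± 0.060, limma-trend adjusted p = 7.5e-07), which placed P4ha2 14th from the top of the 10170 genes tested by log2 fold change, with P4ha1 171st.

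P4ha3, the third alpha isoform, went the other way at a low level. It measured 0.971 and 1.15 FPKM in WT and 0.396 and 0.407 FPKM in KO, from 85 and 99 reads in WT and 37 and 38 reads in KO. The WT libraries both lay above the KO libraries, and the WT mean was 2.64-fold higher. With a mean below 1 FPKM over the 4 libraries it was not tested with the other genes. When the filter was dropped, it was called lower (log2 fold change -0.56 ± 0.061, limma-trend adjusted p = 0.00915), in a fit where 35.8% of 16695 genes were called, 20% higher and 15.8% lower.

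The make-up of the alpha subunit transcripts therefore differed between genotypes. Their summed level rose from 31.5 and 31.8 FPKM in WT to 85.0 and 83.2 FPKM in KO, 2.65-fold by the means. P4ha2 made up 10.3% and 9.75% of that sum in WT and 22.9% and 23.1% in KO. The share of P4ha1 was 86.6% in both WT libraries, and 76.6% and 76.4% in KO. P4ha3 made up 3.08% and 3.62% in WT and 0.466% and 0.489% in KO. Within each library P4ha2 stood at 0.119 and 0.112 of the P4ha1 level in WT and at 0.299 and 0.303 in KO, a 2.59-fold higher ratio. The 2 genotypes were fully separated in this ratio, and the two-sided exact permutation test over libraries gave p = 0.333, the smallest that 2 against 2 libraries allow.

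P4hb, the beta subunit of the same enzyme and also a protein disulfide isomerase for other clients, fell, while P4ha1, P4ha2 and the summed alpha subunits were higher in KO. It measured 225 and 227 FPKM in WT and 185 and 183 FPKM in KO (-0.29 ± 0.032, limma-trend adjusted p = 1.8e-04). P4hb RNA was more abundant than the RNA of the alpha subunits together in every library, while the proteins were not measured. The ratio of summed alpha subunits to P4hb was 0.140 in both WT libraries, and 0.460 and 0.454 in KO. That is 3.26-fold higher in KO, with an exact permutation p = 0.333, again the smallest possible.

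**Figure D2:**
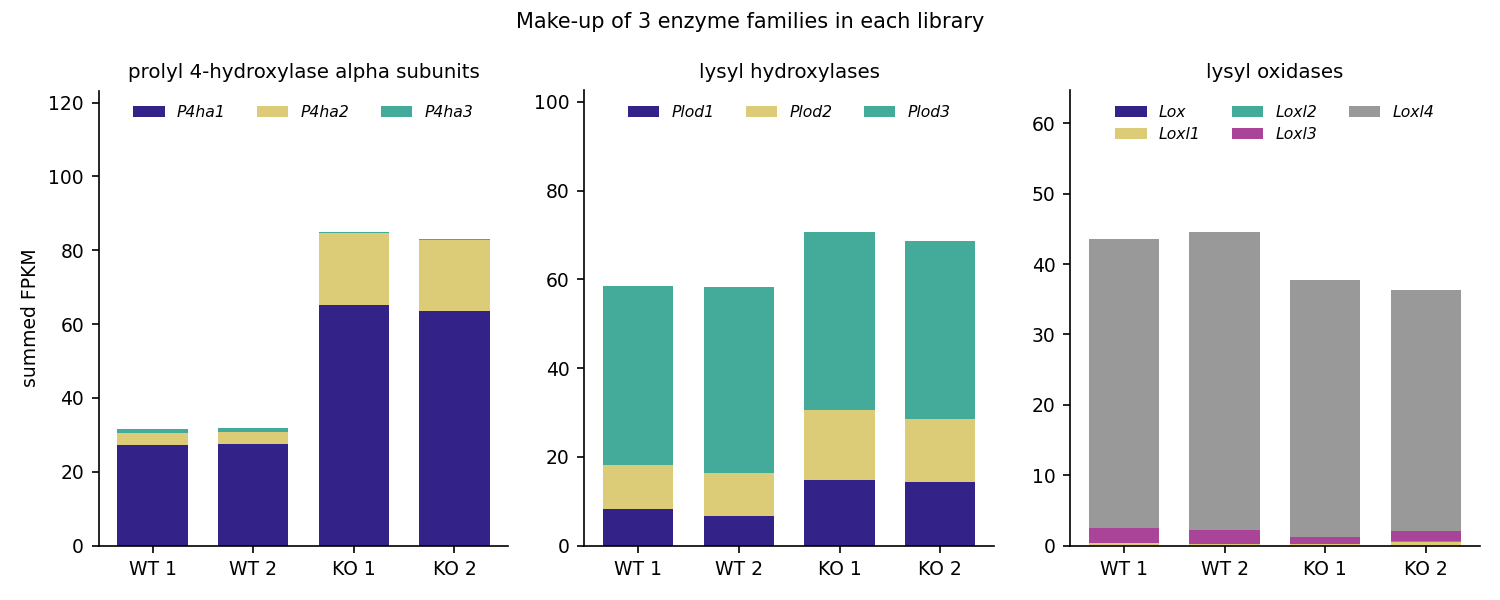
Summed FPKM (vertical axes from 0) of the alpha subunits, the lysyl hydroxylases and the 5 lysyl oxidases in each of the 4 libraries, stacked by gene. The alpha subunit bars rise from about 32 to about 84 FPKM with a wider P4ha2 band in KO, the Plod3 band is alike throughout, and Loxl4 makes up nearly the whole of the lysyl oxidase bars.

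The promoters of the alpha subunit genes that rose are shown because both genes moved together and because both are known HIF-1 targets. RefSeq promoter sequences (build GRCm38.p6) were used for 5 of the 8 genes. They ran from 250 bases before to 50 bases after the gene start, on the strand of the gene. None was found for Plod2 or Loxl2, and Lox was left out because of its chromosome. The 5 sequences were searched on both strands for ACGTG, the core of the hypoxia response element. It reads CACGT where it lies on the other strand. Matches are in capitals. The window of P4ha1 lies at chr10:59323046-59323345 and that of P4ha2 at chr11:54100674-54100973, both on the plus strand.
P4ha1: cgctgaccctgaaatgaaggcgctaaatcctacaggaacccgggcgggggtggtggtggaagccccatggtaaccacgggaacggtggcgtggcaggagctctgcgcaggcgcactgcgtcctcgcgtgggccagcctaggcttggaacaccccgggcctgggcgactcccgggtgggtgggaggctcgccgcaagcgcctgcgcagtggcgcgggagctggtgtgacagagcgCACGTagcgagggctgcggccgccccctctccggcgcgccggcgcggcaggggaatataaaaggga
P4ha2: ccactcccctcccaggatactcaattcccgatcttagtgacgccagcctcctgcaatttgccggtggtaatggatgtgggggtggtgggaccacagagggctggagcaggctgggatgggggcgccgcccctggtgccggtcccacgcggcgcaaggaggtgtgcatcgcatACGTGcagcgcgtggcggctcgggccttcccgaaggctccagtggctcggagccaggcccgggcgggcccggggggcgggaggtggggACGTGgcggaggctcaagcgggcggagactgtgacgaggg
P4ha1 held 1 match, 16 bases before the start, on the other strand. P4ha2 held 2 matches on its own strand, 1 beginning 78 bases before the start and 1 at transcribed base 11. The motif occurs in 19.6% of the 32851 promoter windows of the same length and in 26.3% of the 10554 windows of genes tested here. It overlaps the E-box CACGTG, which 7.15% of all windows and no window of the 5 genes held. P4ha3, whose level was lower in KO, held no match. Outside the 8 genes, P4hb, which was called lower, held 2 matches, and the lysyl oxidase gene Loxl4, also called lower, held none. The prolyl 3-hydroxylase gene P3h1, which was called higher, has 2 windows, of which 1 held 2 matches and the other none. The windows of P3h3, which was not called, and of P4htm, which was below the filter, held none. A match describes letters and is not a measured binding site.

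The lysyl hydroxylases changed less than the alpha subunits and not alike. Plod1, the hydroxylase of helical lysines, measured 8.28 and 6.63 FPKM in WT and 14.8 and 14.4 FPKM in KO. The WT libraries differed from each other more than the KO libraries did, yet both lay below them. The mean rose 1.96-fold, from 7.45 ± 1.16 to 14.6 ± 0.233 FPKM (0.89 ± 0.092, limma-trend adjusted p = 1.5e-04). Plod2, the hydroxylase of telopeptide lysines, whose product gives the stable pyridinoline cross-links, measured 9.89 and 9.72 FPKM in WT and 15.8 and 14.2 FPKM in KO. Its genotypes did not overlap, and the mean rose 1.53-fold, from 9.81 ± 0.125 to 15.0 ± 1.09 FPKM (0.56 ± 0.064, limma-trend adjusted p = 2.3e-04).

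Plod3, which also adds sugars to hydroxylysine, was the lysyl hydroxylase with the highest level and was not called. It measured 40.3 and 42.0 FPKM in WT and 40.2 and 40.0 FPKM in KO. The highest KO value lay just below the lowest WT value. The log2 fold change was -0.04 ± 0.041 (limma-trend adjusted p = 0.461), with a 95% interval from -0.13 to 0.06. Plod3 made up 68.9% and 72.0% of the summed lysyl hydroxylase FPKM in WT and 56.8% and 58.3% in KO. The sum rose from 58.5 and 58.3 FPKM in WT to 70.7 and 68.6 FPKM in KO, 1.19-fold by the means. The ratio of Plod2 to Plod1 and Plod3 together was 0.204 and 0.200 in WT and 0.287 and 0.261 in KO, 1.36-fold higher in KO (exact permutation p = 0.333, the smallest possible).

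For comparison with the alpha subunit promoters, those of Plod1, which rose, and of Plod3, which was not called, are shown from the same RefSeq table. The windows are chr4:147936727-147937026 on the minus strand for Plod1 and chr5:136986769-136987068 on the plus strand for Plod3 (GRCm38.p6). Capitals again mark ACGTG.
Plod1: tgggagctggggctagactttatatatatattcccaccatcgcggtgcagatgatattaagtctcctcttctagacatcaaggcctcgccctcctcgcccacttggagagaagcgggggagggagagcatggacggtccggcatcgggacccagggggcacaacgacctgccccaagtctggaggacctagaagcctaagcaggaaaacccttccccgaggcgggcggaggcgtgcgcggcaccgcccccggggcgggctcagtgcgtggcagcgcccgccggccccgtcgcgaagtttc
Plod3: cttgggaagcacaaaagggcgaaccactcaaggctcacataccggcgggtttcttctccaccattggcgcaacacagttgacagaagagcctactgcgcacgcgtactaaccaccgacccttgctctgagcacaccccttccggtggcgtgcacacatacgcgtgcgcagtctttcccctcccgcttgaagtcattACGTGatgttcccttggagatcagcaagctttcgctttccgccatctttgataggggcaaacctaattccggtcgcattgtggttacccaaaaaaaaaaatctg
Plod1 held no match, while Plod3 held 1, beginning 54 bases before the start. Among the 5 genes whose window was searched, the motif was thus present in 3 (P4ha1, P4ha2 and Plod3) and absent from 2 (P4ha3 and Plod1). P4ha1 and P4ha2 rose and held a match, Plod1 rose without a match, and Plod3 held a match and was not called. P4ha3 lay below the filter. Whether the motif goes with the changes was not tested, and so few windows cannot decide it.

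Lox and Loxl2 gave almost no reads. Lox, the founding lysyl oxidase, is listed at 0 in both WT libraries, and had 1 read (0.00583 FPKM) in DHODH KO replicate 1 and 4 reads (0.0233 FPKM) in DHODH KO replicate 2. A count of 0 allows up to 3 reads, which is 0.0186 and 0.0190 FPKM in the WT libraries. Loxl2, which also acts on collagen IV, measured 0.0580 and 0.0246 FPKM in WT and 0.0272 and 0.109 FPKM in KO, from 12, 5, 6 and 24 reads. Its genotypes overlapped, and the highest value of both genes was in DHODH KO replicate 2, the library with heart muscle and fibroblast transcripts. Whether these reads came with those transcripts was not tested. With the filter dropped neither gene was called (limma-trend adjusted p = 0.374 for Lox and 0.617 for Loxl2), and a difference was not detectable at this depth. Such limits cover counting error only.

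The lysyl oxidase that these cells did express was Loxl4, a member of the family with scavenger receptor domains. It measured 41.1 and 42.4 FPKM in WT and 36.5 and 34.2 FPKM in KO. It fell slightly, with both KO libraries below both WT libraries (-0.24 ± 0.047, limma-trend adjusted p = 0.00359), and it made up between 94.2% and 96.6% of the summed FPKM of the 5 lysyl oxidase genes in every library. Loxl3 measured 2.04 and 1.90 FPKM in WT and 1.05 and 1.48 FPKM in KO and was called lower (-0.40 ± 0.119, limma-trend adjusted p = 0.0209). That call was lost without WT replicate 1 (-0.36, limma-trend adjusted p = 0.0759), without DHODH KO replicate 1 (-0.26, 0.0836) and without the filter (0.0842), and without DHODH KO replicate 2 the log2 fold change was -0.54. Loxl1, needed for elastic fibres, stayed below 0.485 FPKM in all 4 libraries. The summed level of the 5 genes was 43.6 and 44.6 FPKM in WT and 37.8 and 36.2 FPKM in KO, 1.19-fold higher in WT.

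**Figure D3:**
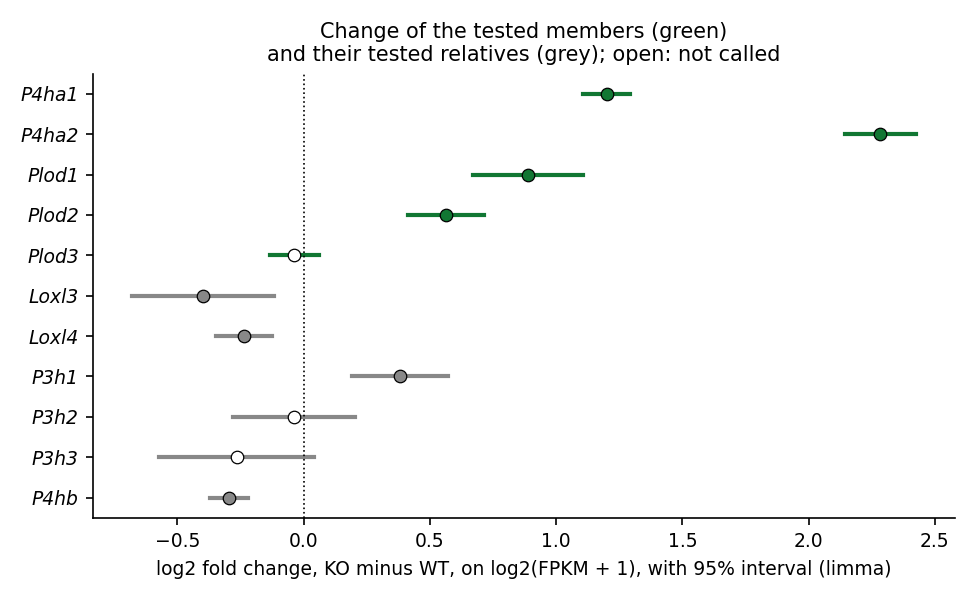
Log2 fold changes, KO minus WT, with their 95% intervals from limma-trend (horizontal axis) for the 5 tested hydroxylases (green) and the 6 tested relatives (grey). P4ha2, P4ha1, Plod1 and Plod2 lie to the right of 0 at 2.28, 1.20, 0.89 and 0.56, Plod3 spans 0, and Loxl4, Loxl3 and P4hb lie to the left.

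The prolyl 3-hydroxylases, which modify single prolines of the helix, were measured at low to moderate levels. P3h1 measured 3.74 and 3.96 FPKM in WT and 5.64 and 5.02 FPKM in KO and rose (0.38 ± 0.081, limma-trend adjusted p = 0.00458). P3h2, with a log2 fold change of -0.04 (95% interval from -0.28 to 0.20), and P3h3, with -0.26 (from -0.57 to 0.04), were not called, and P3h3 was called lower without DHODH KO replicate 2 (-0.43, limma-trend adjusted p = 0.0134). P3h4 and P4htm, a transmembrane relative, had at most 4 reads in any library. In all, 1 of the 6 tested relatives rose and 3 fell (66.7% called, beside 64.7% of all genes tested).

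Genes that fold, glycosylate and export procollagen in the endoplasmic reticulum went both ways. Of 18 tested, 7 rose and 8 fell (83.3% called, beside 64.7% of all genes tested), with a median log2 fold change of 0.0040. The largest changes were in Klhl12, a ubiquitin ligase adaptor for large procollagen carriers, which rose 2.44-fold to 29.5 ± 0.558 FPKM, and in Sparc, a collagen-binding matrix protein, which rose 2.09-fold to 106 ± 0.765 FPKM. Tmem38b, an endoplasmic reticulum cation channel, rose 1.68-fold, and the disulfide isomerase gene Pdia6 fell from 129 ± 2.87 to 85.3 ± 1.98 FPKM. Crtap, the partner of P3h1, and Serpinh1, the collagen chaperone, both picked after their values were seen, rose by 0.44 ± 0.038 and 0.21 ± 0.032 on the log2 scale (limma-trend adjusted p = 6.8e-05 and 8.4e-04).

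Genes of procollagen processing and fibril assembly outside the cell mostly fell. Of 11 tested, 8 fell and 1 rose, with a median of -0.40. That is 81.8% called, beside 64.7% of all genes tested, of which 29.1% of genes tested were lower. Bmp1, the procollagen C-proteinase that also activates lysyl oxidase, fell from 63.7 ± 1.18 to 36.9 ± 0.742 FPKM (-0.77 ± 0.040, limma-trend adjusted p = 7.4e-06). Efemp2, the fibulin that brings lysyl oxidase to elastin, fell from 34.7 ± 1.79 to 21.8 ± 0.465 FPKM, and the matrix glycoprotein gene Tnc from 3.63 ± 0.104 to 1.18 ± 0.0161 FPKM. The gene that rose was Ltbp4, which binds latent TGF-beta and fibulins, from 14.1 ± 0.321 to 24.2 ± 0.0719 FPKM.

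The collagen chains, which are the substrates, were mostly silent. Of 39 chains in the table, 29 lay below the filter. Of the 10 tested, 5 rose and 2 fell (70% called, beside 64.7% of all genes tested), with a median of 0.18. Col4a5 and Col4a1, chains of the basement membrane, rose 1.85-fold to 11.6 ± 0.912 FPKM and 1.42-fold to 92.2 ± 5.63 FPKM. Col16a1 rose 1.65-fold to 27.9 ± 1.89 FPKM, and Col18a1, the source of endostatin, fell from 25.7 ± 0.186 to 15.9 ± 0.155 FPKM. The fibrillar chain genes Col1a2 and Col3a1, named as fibroblast markers, stayed below 0.083 FPKM in 3 libraries. They reached 1.15 and 2.95 FPKM in DHODH KO replicate 2. Col5a1, a fibrillar chain gene picked after its values were seen, was expressed, at 10.5 FPKM in both WT libraries. It measured 7.84 and 7.03 FPKM in KO and was called lower (-0.45 ± 0.067, limma-trend adjusted p = 9.3e-04).

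HIF-1 targets other than the 8 genes rose in most cases. Of 30 tested, 23 rose and 4 fell, with a median of 0.50. Called genes made up 90% of the list, beside 64.7% of all genes tested (35.6% higher and 29.1% lower). Adm, the adrenomedullin gene, rose from 0.195 ± 0.0752 to 5.64 ± 1.12 FPKM, Ndrg1 4.39-fold to 517 ± 13.8 FPKM, Vegfa 4.60-fold to 31.1 ± 0.261 FPKM and Ddit4 3.53-fold to 93.5 ± 1.57 FPKM. The 4 that fell were the glycolytic genes Pgk1, Ldha, Hk2 and Pfkl, picked once the values were known, which had log2 fold changes from -0.18 to -0.12. Only 2 of the 4 were called without WT replicate 1 or without WT replicate 2. Hif1a RNA fell from 55.5 ± 1.05 to 32.6 ± 0.469 FPKM (-0.75 ± 0.040, limma-trend adjusted p = 8.5e-06), while Arnt and Vhl were not called. HIF-1 is mainly controlled through the stability of its protein, which was not measured.

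Other 2-oxoglutarate dioxygenases, which share the chemistry of the collagen hydroxylases, split between directions. Of 28 tested, 14 rose and 6 fell (71.4% called, beside 64.7% of all genes tested), with a median of 0.13. Egln1, Egln3 and Kdm3a stood on this list and on that of HIF-1 targets, and all 3 rose. Aspscr1, which is on the list but is not a dioxygenase, is 1 of the 14. Phyhd1 rose 2.36-fold to 6.99 ± 0.341 FPKM. The histone demethylase genes Kdm3a and Kdm4b rose 1.92-fold and 1.90-fold, to 25.7 ± 1.98 and 9.01 ± 0.938 FPKM. Riox2, a ribosomal oxygenase gene, fell from 11.2 ± 0.981 to 7.01 ± 0.642 FPKM.

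**Figure D4:**
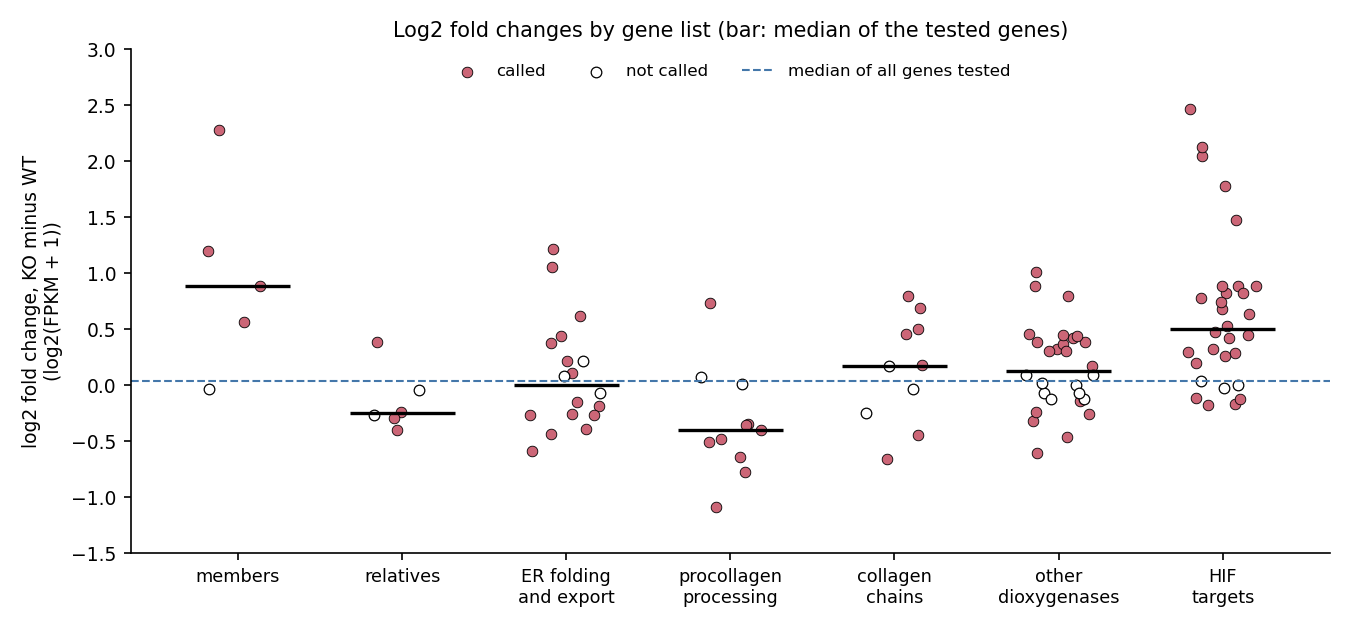
Log2 fold changes, KO minus WT, of the tested genes of 7 lists (vertical axis), with filled points called and open points not called by limma-trend. Horizontal bars are list medians, from -0.40 for procollagen processing to 0.89 for the 5 tested hydroxylases, and the dashed line is the median of all genes tested, 0.039.

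The 3 tested genes whose values over the 4 libraries most resembled those of P4ha2 were Lrrn4cl, Tnf and Atf5. Likeness was the Euclidean distance of log2(FPKM + 1) values centred on the WT mean, at 0.159, 0.191 and 0.213. With 2 libraries per genotype, likeness mostly ranks genes by the size of the same KO to WT difference. Lrrn4cl rose from 3.56 and 3.97 FPKM in WT to 21.4 and 23.4 FPKM in KO. Tnf, a cytokine gene, rose from 0.0856 and 0.105 FPKM to 3.85 and 3.90 FPKM, and Atf5, a stress transcription factor gene, from 13.8 and 14.9 FPKM to 66.6 and 68.5 FPKM.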

How the data were processed

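Libraries were made from 1.3 ug of TRIzol-extracted total RNA of 4T1 cells, per the labels' protocols. The values are FPKM as deposited by the authors, and sample titles and column names gave the match of columns to samples. The tools were fastp and HTSeq and the build GRCm39, per the submitters' processing notes. Aligner, annotation and strand setting are not stated there, so reads of overlapping or antisense genes cannot be told apart.

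Genes with a mean of at least 1 FPKM (10170 of 16695) were fitted with limma-trend 3.58.1 in R 4.3.3 on log2(FPKM + 1), KO against WT, without covariates, two-sided, with calls at an adjusted p (Benjamini-Hochberg) under 0.05. Folds of genes and of sums are ratios of mean FPKM, and folds of enzyme ratios come from the difference of mean log2 ratios. For 98.4% of genes the FPKM values corresponded to whole reads (at most 20000, within 0.002 of a read). Ratios of genes within a library were compared by exact permutation over libraries. Promoters came from RefSeq (GRCm38.p6), a different build from the authors'. Tables were made with pandas 2.3.3 in Python 3.11.15, and figures with Matplotlib 3.10.9.

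The 8 genes and the lists were chosen with earlier results of these data known. The text names all 8 genes, their tested relatives, up to 4 called genes of each further list with the largest absolute log2 fold change, and the 3 genes most like the member with the largest change. Of the genes so chosen, 1 is not reported here. As the values are not counts, voom on the recovered reads served only as an alternative. The ratio of Loxl2 to Lox was not computed, as Lox is at 0 in WT.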

Additional observations from a re-analysis of the deposited data

How the results depend on the processing

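The rises of P4ha1, P4ha2, Plod1 and Plod2 were called in each of the 14 alternative analyses: TPM or median-ratio scaling, 2 other pseudocounts, no filter or one at 5 FPKM, limma without trend or robust, voom on recovered reads, a replicate block, and each library left out. Their log2 fold changes ran from 1.16 to 1.23, 2.25 to 2.58, 0.75 to 1.03 and 0.49 to 0.63. Plod3 was called in none (adjusted p from 0.161 to 0.922). Without the filter 1 of the 8 genes, P4ha3, was called lower, against 0 with it. Replicate numbers were not used as pairs in the main fit. The differences of replicate 1 from 2 in the 2 genotypes correlated at only 0.046 over genes. That value cannot tell whether the libraries were prepared in pairs, on which the labels are silent. The replicate block gave 3681 genes higher and 3001 lower, against 3618 and 2958, and an exact p = 0.5 for each enzyme ratio, the smallest that 2 pairs allow. Among lists, no relative was called higher with a filter at 5 FPKM (0 against 1), since P3h1 then fails the filter. The count of other dioxygenases that fell was 2 without the filter, against 6, and from 3 to 5 with 1 library left out. The count of HIF-1 targets that fell was 2 without the limma trend and 2 with voom, which tested 25 of the 30, against 4, and from 2 to 4 with 1 library left out. Where not stated the cause was not tested. With 2 libraries per genotype, small differences and genes under about 1 FPKM are poorly resolved.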

Other observations

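Genes that supply metal ions and ascorbate to these enzymes went both ways. Of 12 tested, 3 rose and 6 fell (75.0% called, beside 64.7% of all genes tested), with a median log2 fold change of -0.09. Slc31a1, the copper importer, rose 1.81-fold from 20.1 ± 1.09 to 36.3 ± 1.36 FPKM, and the related copper transporter gene Slc31a2 2.57-fold from 10.2 ± 0.548 to 26.2 ± 0.0897 FPKM (limma-trend adjusted p = 2.0e-05 and 3.8e-06). Ccs, the copper chaperone of superoxide dismutase, fell from 21.3 ± 1.18 to 14.8 ± 1.41 FPKM, and Slc39a14, a zinc, iron and manganese importer gene, from 11.4 ± 0.450 to 5.42 ± 0.180 FPKM. Atp7a, which loads copper onto lysyl oxidases, was not called, at 5.52 and 5.001 FPKM in WT and 6.39 and 5.57 FPKM in KO (limma-trend adjusted p = 0.147).

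TGF-beta ligands, receptors and targets, which govern collagen genes in many cells, moved both ways. Of 14 tested, 7 rose and 4 fell (78.6% called, beside 64.7% of all genes tested), with a median of 0.10. The ligand gene Tgfb2 rose 1.997-fold to 7.55 ± 0.180 FPKM. Ccn2, a target gene, fell from 82.1 ± 0.944 to 38.3 ± 1.36 FPKM, and Ltbp1, the latent TGF-beta binding protein gene, from 25.9 ± 0.356 to 11.2 ± 0.808 FPKM (limma-trend adjusted p = 2.4e-06 and 7.5e-06).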
